A study of Mus musculus with 18 samples.

Results

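The cyclic AMP (cAMP) phosphodiesterases hydrolyse cAMP, the second messenger through which hormones act on fat cells. The genes described are Pde3a and Pde3b of the PDE3 family, Pde4a, Pde4b, Pde4c and Pde4d of the PDE4 family, Pde7a and Pde7b of the PDE7 family, and Pde8a and Pde8b of the PDE8 family. They were found by symbol and are 10 of the 52093 symbols in the deposited tables, with the table row of highest mean RPKM taken where a symbol had several rows. All 10 genes passed the read filter and were tested in every comparison.

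RNA was sequenced from wild type male C57BL/6 mice kept for 12 weeks on a high-fat diet (HFD) and 16 weeks old. The 18 samples were 6 of adipocytes isolated from inguinal white adipose tissue (iWAT), 6 of adipocytes isolated from epididymal white adipose tissue (eWAT) and 6 of whole brown adipose tissue (BAT). White adipocytes were the cells that floated after collagenase digestion, whereas BAT was frozen undigested, so that tissue and preparation cannot be told apart in any comparison with BAT. Both white depots carry the numbers 1, 2, 3, 4, 5 and 16 in their titles, and BAT carries 1, 2, 5, 16, 17 and 18. The labels do not say whether a shared number stands for a shared mouse. The strain field reads C57BL/6, the protocol in the labels C57BL/6J and the supplement of the study C57BL/6NTac. All mice were on the HFD by the titles and the study design, although a treatment field in the labels gives regular chow for all 18 samples. The labels also name BAT adipocytes as the cell type of the BAT samples, while their source is given as the tissue.

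In adipocytes, β-adrenergic receptors coupled to Gs raise cAMP, which activates protein kinase A and through it lipolysis and, in brown adipocytes, heat production. Receptors coupled to Gi lower the production of cAMP, and phosphodiesterases remove it. PDE3B is the enzyme through which insulin, acting by way of AKT, lowers cAMP and restrains lipolysis. PDE4 enzymes are specific for cAMP and are blocked by rolipram, whereas PDE7 and PDE8 enzymes have a high affinity for cAMP and are insensitive to rolipram.

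Between 24655056 and 42518483 reads per sample were counted on the rows of the tables. RPKM scales the reads of a row to its length and to the total reads of the sample, so that levels can be compared between genes. The 10 rows with the most reads held 43.6 to 54.3% of the reads in BAT and 9.94 to 20.5% in the white depots, and differences between tissues were therefore tested on counts after TMM scaling, which assumes that most genes do not differ. Without TMM, the median log2 fold change over all tested genes was 0.87 for iWAT over BAT and 0.89 for eWAT over BAT, against 0.01 and -0.02 with it. The summed RPKM of 8 brown adipocyte markers was 2996 to 4369 in BAT, 38.7 to 60.1 in iWAT and 8.27 to 22.9 in eWAT. Lanes 1 and 2 held the white samples and lanes 3 and 4 held BAT alone, and an effect of lane on the comparisons with BAT cannot be told apart from tissue.

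Pde3b RNA was the most abundant of the family in all 3 tissues. Its level was 32.9 ± 4.66 RPKM in iWAT, 16.2 ± 5.42 in eWAT and 27.4 ± 3.09 in BAT (mean ± SD, n = 6 samples). This was 58.9 ± 6.46%, 43.1 ± 8.14% and 58.5 ± 2.77% of the summed RPKM of the 10 genes. In no tissue did the lowest Pde3b sample overlap the highest sample of the gene that followed it. The other ranks depended on the tissue. In iWAT, Pde3b was followed by Pde7a (6.47 ± 1.14 RPKM), Pde8a (6.05 ± 0.58) and Pde4b (5.04 ± 2.93), whose ranges overlapped from each gene to the next. In eWAT, Pde4b (6.26 ± 1.26) and Pde8a (6.01 ± 0.524) overlapped with each other. Pde7a (3.67 ± 1.05) followed them there, with no sample as high as the lowest of Pde8a but with its highest sample just above the lowest of Pde4b. In BAT, Pde8a (6.59 ± 0.719) and Pde4a (5.12 ± 0.779) were followed by Pde4d (2.77 ± 0.344), with no overlap between Pde4a and Pde4d. Pde7a, Pde4b, Pde7b, Pde4c, Pde3a and Pde8b came next in BAT, from 1.002 ± 0.136 down to 0.635 ± 0.0404 RPKM, and each overlapped its neighbours. Pde4c was the lowest of the family in both white depots.

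**Figure D1:**
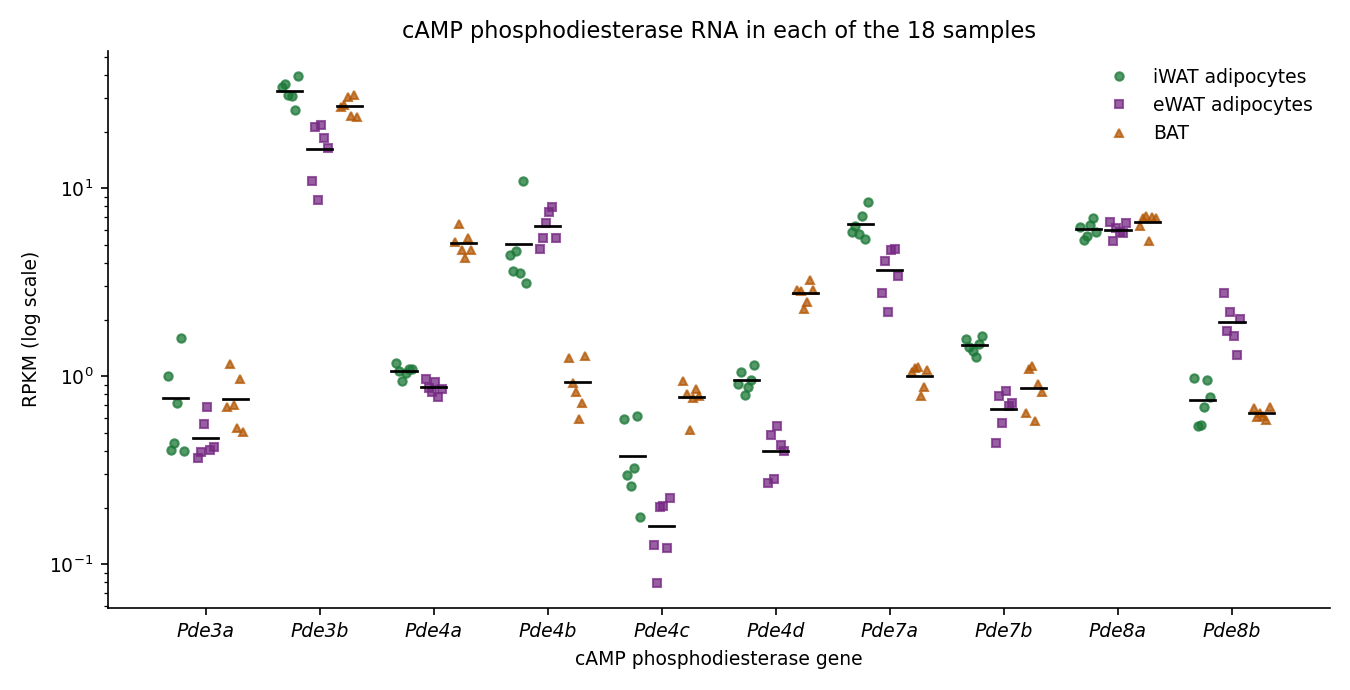
RPKM of each cAMP phosphodiesterase gene (log scale) in the 6 iWAT adipocyte, 6 eWAT adipocyte and 6 BAT samples. Points are samples and black bars are means. Pde3b lies above all other genes in each tissue, Pde4a and Pde4d are higher in BAT, and Pde4b and Pde7a are higher in the white depots.

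In the test between iWAT and eWAT adipocytes, 7 of the 10 genes differed, and 68.6% of all 19623 genes tested did so. Of these 7, 6 were higher in iWAT (34.1% of all genes) and 1, Pde8b, was higher in eWAT (34.5%). Between iWAT adipocytes and BAT, 8 of 10 differed, 2 of them higher in iWAT and 6 higher in BAT. In that comparison 75.3% of all genes differed, 38.1% higher in iWAT and 37.2% higher in BAT. Between eWAT adipocytes and BAT, all 10 genes differed, 3 of them higher in eWAT and 7 higher in BAT. There, 82.5% of all genes differed, 41.1% higher in eWAT and 41.4% higher in BAT. The share of the family that differed was thus close to that of all genes between the white depots. Differences of at least 2-fold were found for 5, 5 and 8 genes, against 24.9%, 37.3% and 49% of all genes. TMM-scaled RPKM did not overlap between the tissues for 6, 7 and 10 of the 10 genes, against 42.3%, 56.4% and 66.8% of all genes. The median size of the log2 fold change over the 10 genes was 0.93, 1.20 and 1.31, and over all genes it was 0.47, 0.69 and 0.97. Without TMM, the called genes of the iWAT over BAT comparison split into 5 higher in iWAT and 3 higher in BAT, and all called genes split into 13703 and 3054 in place of 7528 and 7336. For eWAT over BAT, the family then split into 3 and 4, and all genes into 12965 and 4061 in place of 8243 and 8318.

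**Figure D2:**
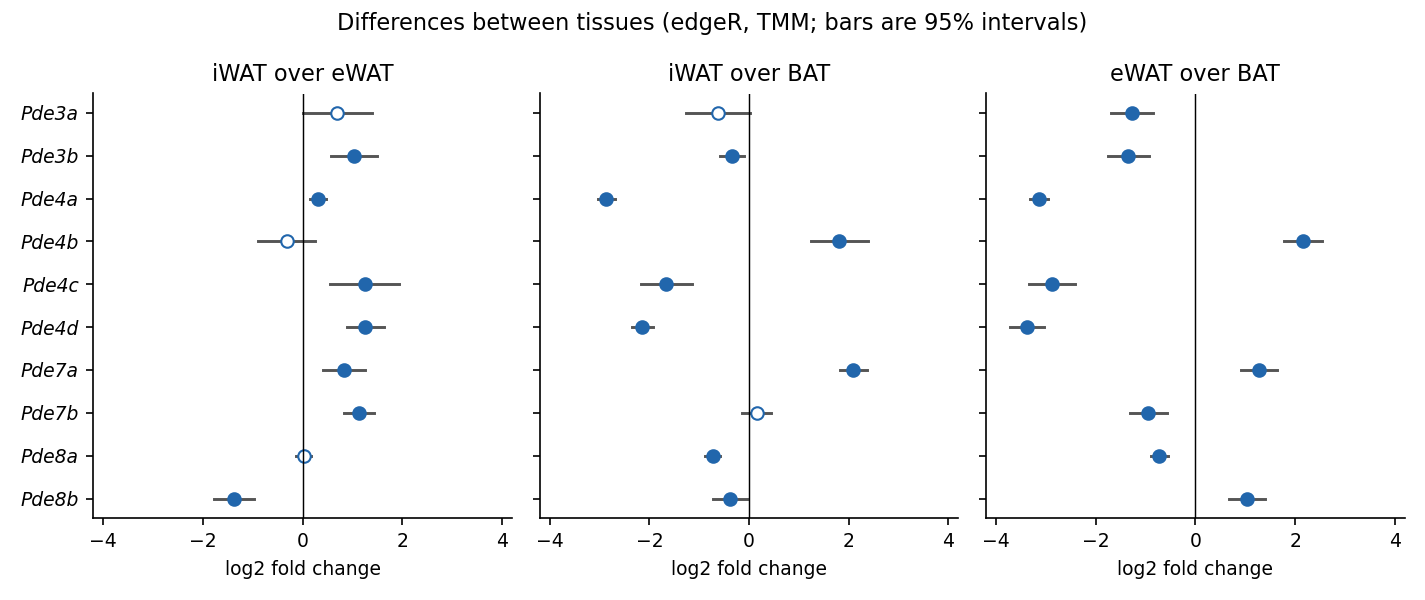
Log2 fold changes of the 10 genes in the 3 comparisons, the first tissue over the second, from edgeR with TMM scaling. Filled points passed an adjusted p of 0.05, open points did not, and lines are 95% intervals. Pde4a, Pde4c and Pde4d lie to the left of 0 in both comparisons with BAT, and Pde4b and Pde7a lie to the right.

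PDE3B is the insulin-regulated enzyme of fat cells. Pde3b had 25.9 to 39.5 RPKM in iWAT (median 32.8), 8.63 to 21.8 in eWAT (median 17.5) and 23.8 to 31.2 in BAT (median 27.3). The iWAT samples all lay above the eWAT samples, and eWAT numbers 1 (10.9 RPKM) and 3 (8.63 RPKM) were the lowest of the 18. Pde3b was 2.04-fold higher in iWAT than in eWAT (log2 fold change 1.03, SE 0.21, adjusted p = 0.000855). It was 2.55-fold lower in eWAT than in BAT (log2 fold change -1.35, SE 0.19, adjusted p = 1.03e-05), and these samples did not overlap. For iWAT over BAT, the log2 fold change was -0.34 (SE 0.11, adjusted p = 0.0118), with overlapping samples. Its direction turned without TMM (0.51).

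The row behind these values is not the main transcript of Pde3b. It is a single-exon row on the minus strand (chr7:121678422-121682555, mm9), placed at the 3′ end of the plus-strand Pde3b row of 15 exons (chr7:121558768-121682765). In the GENCODE vM1 annotation of the same build, 3011 of its 4134 bases are exon of Pde3b, 215 of them coding and the rest 3′ untranslated, and 1123 are intron. The kit is not stated to mark strand, and reads of both rows then cannot be told apart. In the row of 15 exons, Pde3b had 30.5 ± 4.66, 14.7 ± 4.83 and 20.1 ± 3.56 RPKM in iWAT, eWAT and BAT. With that row, the iWAT over eWAT difference was 1.06 (SE 0.22, adjusted p = 0.000678) and the eWAT over BAT difference -1.04 (SE 0.20, adjusted p = 0.000188). The iWAT over BAT difference was 0.00 (95% interval -0.28 to 0.29, adjusted p = 0.986). Both rows of Pde3b thus differed between eWAT and each of the other tissues, and a difference between iWAT and BAT rested on the 3′ row. The log2 ratio of the 3′ row to the row of 15 exons was higher by 0.35 in BAT than in iWAT. Over 151 symbols with a single-exon row near the 3′ end of a longer one, the median of this difference was 0.32, and 71 of the 151 lay above Pde3b.

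**Figure D3:**
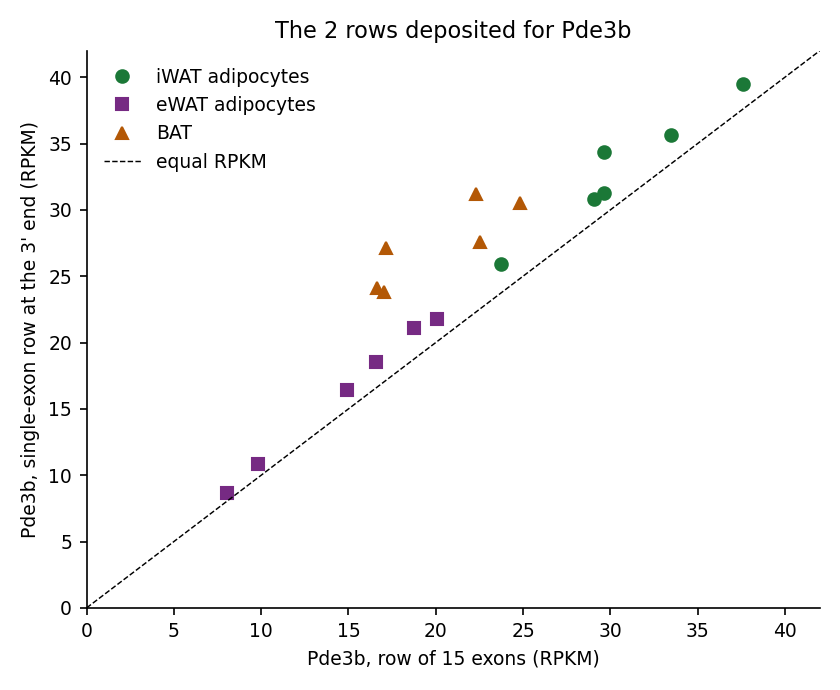
RPKM of the single-exon row at the 3′ end of Pde3b against that of its row of 15 exons, in the 18 samples. The dashed line marks equal RPKM. The samples of both white depots lie just above the line, and the BAT samples lie farther above it, with 23.8 to 31.2 RPKM on the single-exon row and 16.7 to 24.8 on the other.

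PDE3A, the other enzyme of the family, is known from heart, platelets and smooth muscle. Pde3a (chr6:141197790-141450589) had 0.398 to 1.60 RPKM in iWAT adipocytes (median 0.582), 0.368 to 0.689 in eWAT (median 0.413) and 0.505 to 1.15 in BAT (median 0.697). Its level was a small part of that of Pde3b in each tissue, and the tissues overlapped on this scale. After TMM scaling, Pde3a was 2.42-fold lower in eWAT than in BAT, without overlap (log2 fold change -1.27, SE 0.20, adjusted p = 2.18e-05). Without TMM this call was lost (-0.38, adjusted p = 0.111). The values were 0.69 for iWAT over eWAT (SE 0.32, adjusted p = 0.0713) and -0.61 for iWAT over BAT (SE 0.30, adjusted p = 0.0772). The former passed without iWAT number 2, 3 or 16 or without eWAT number 4, at 0.80 to 0.83 (adjusted p = 0.0364 to 0.0422), and it passed with DESeq2 (0.70, adjusted p = 0.0476) and with all 18 samples in 1 fit (0.68, adjusted p = 0.0452). The highest of the 6 iWAT samples, number 5, weighed on both values. Without it, iWAT over eWAT was 0.35 (adjusted p = 0.228), and iWAT over BAT was -0.95 and passed (adjusted p = 0.00228).

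The PDE4 genes changed places between white adipocytes and BAT. Their summed RPKM was 7.44 ± 3.05 in iWAT, 7.69 ± 1.29 in eWAT and 9.59 ± 1.162 in BAT, and on TMM-scaled RPKM it was 6.30 ± 2.17, 6.17 ± 1.15 and 13.9 ± 0.743. Pde4b made up 65.0 ± 8.72% of this sum in iWAT and 81.0 ± 3.09% in eWAT, but 9.69 ± 2.64% in BAT. Pde4a made up 53.3 ± 3.75% in BAT, against 15.7 ± 4.18% in iWAT and 11.7 ± 2.55% in eWAT. The share of Pde4d was 28.9 ± 2.27% in BAT, 14.2 ± 4.70% in iWAT and 5.25 ± 1.27% in eWAT. For none of these 3 genes did the share in any BAT sample overlap that in a white sample. The ratio of Pde4a to Pde4b within a sample, which does not depend on scaling between samples, was 3.63 to 7.59 in BAT, 0.0996 to 0.352 in iWAT and 0.0983 to 0.204 in eWAT. The rows of Pde4b and Pde4d merge many isoforms and are 15175 and 25863 bases long, so that RPKM can understate a short isoform of either gene.

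**Figure D4:**
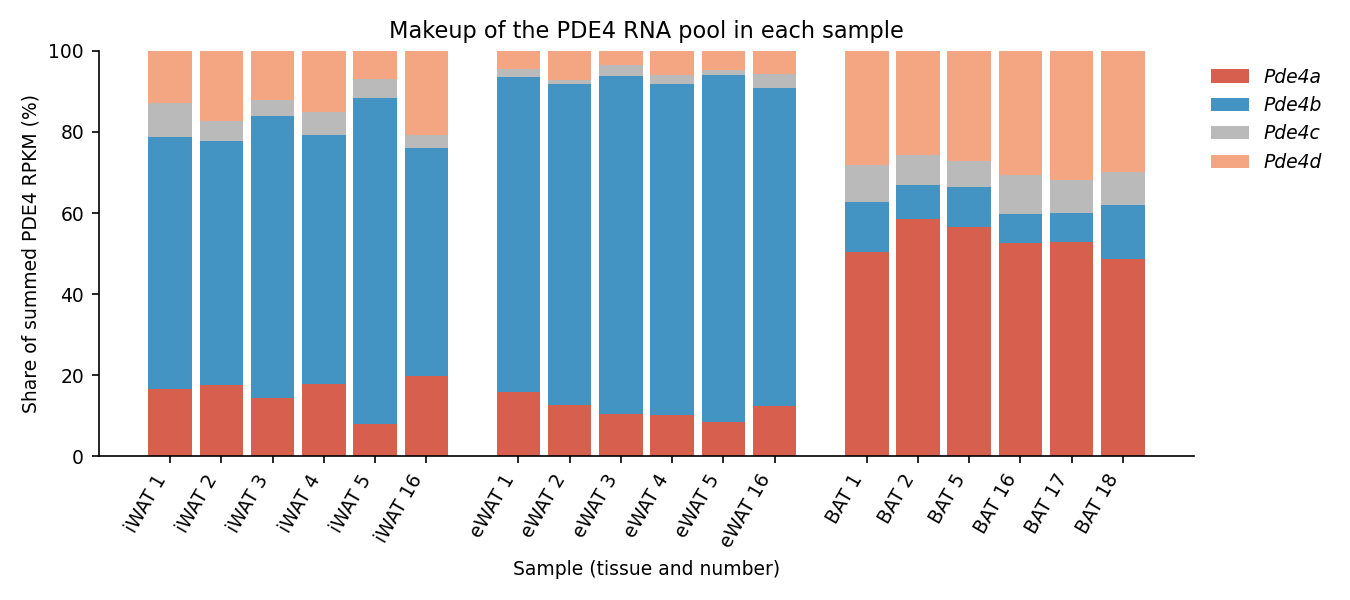
Share of each PDE4 gene in the summed PDE4 RPKM of a sample (percent, bars from 0 to 100), for the 6 samples of each tissue. Pde4b fills 56.3 to 85.6% of the bar in the white samples and 6.98 to 13.4% in BAT, where Pde4a fills 48.6 to 58.6%.

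Pde4a (chr9:20970158-21017692) codes for a widely expressed enzyme of long and short isoforms. It had 0.945 to 1.17 RPKM in iWAT adipocytes (median 1.07), 0.779 to 0.968 in eWAT (median 0.863) and 4.25 to 6.46 in BAT (median 4.94). All BAT samples were above all white samples, and the white depots were close to each other. Pde4a was 7.28-fold higher in BAT than in iWAT (log2 fold change of iWAT over BAT -2.86, SE 0.08, adjusted p = 2.65e-13). It was 8.78-fold higher in BAT than in eWAT (eWAT over BAT -3.13, SE 0.09, adjusted p = 1.55e-13). The difference of iWAT over eWAT, 0.30 (SE 0.07, adjusted p = 0.0031), was the smallest of those that passed between the white depots.

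Pde4d (chr13:109906430-110746177) codes for an enzyme known for its binding to β-arrestin and to anchoring proteins. It had 0.795 to 1.14 RPKM in iWAT (median 0.931), 0.271 to 0.542 in eWAT (median 0.415) and 2.27 to 3.26 in BAT (median 2.85). The tissues did not overlap and stood in the order BAT, iWAT, eWAT. The log2 fold change was 1.25 for iWAT over eWAT (SE 0.17, adjusted p = 3.38e-05). Against BAT, it was -2.14 for iWAT (SE 0.10, adjusted p = 3.58e-11) and -3.37 for eWAT (SE 0.16, adjusted p = 2.74e-11). Pde4d was thereby 10.4-fold lower in eWAT than in BAT, the largest difference in the family.

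Pde4c (chr8:73247619-73275085) followed the same order at a low level. It had 0.179 to 0.615 RPKM in iWAT (median 0.311), 0.0799 to 0.226 in eWAT (median 0.164) and 0.517 to 0.940 in BAT (median 0.793), on 15 to 172 reads per sample. The samples of the white depots overlapped. Pde4c was nonetheless higher in iWAT than in eWAT (log2 fold change 1.24, SE 0.32, adjusted p = 0.00361), and it was lower in iWAT (-1.66, SE 0.24) and in eWAT (-2.88, SE 0.22) than in BAT, with adjusted p of 1.18e-05 and 6.63e-09.

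Pde4b (chr4:101760148-102279867), whose enzyme is known from immune cells as well as fat, went the other way. It had 3.12 to 10.9 RPKM in iWAT (median 4.03), 4.76 to 7.93 in eWAT (median 5.98) and 0.592 to 1.28 in BAT (median 0.874). All white samples were above all BAT samples, and 1 iWAT sample, number 5, was above all others. Pde4b was 3.51-fold higher in iWAT than in BAT (log2 fold change 1.81, SE 0.27, adjusted p = 1.78e-05) and 4.48-fold higher in eWAT than in BAT (2.16, SE 0.18, adjusted p = 1.71e-08). The value for iWAT over eWAT was -0.32 (SE 0.26, adjusted p = 0.289). Sample number 5 decided this call as well, since without it the value was -0.68 (adjusted p = 0.00126), higher in eWAT.

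The sequences upstream of the start sites of Pde4a, Pde4b and Pde4d, which changed places between white adipocytes and BAT, are shown with that of Pde8a, whose RPKM ranges overlapped between all tissues. A cAMP response element (CRE) is the site at which the factor CREB binds DNA, and its core TGACG was searched on both strands. RefSeq promoters in the GRCm38.p6 build were given for 7 of the 10 genes, as 16 windows of 250 bases before to 50 bases after a start. Pde3a, Pde3b and Pde7a had no window. The core was in 4 of the 16 windows and in 20.8% of the 32851 promoters of all genes, while the full element TGACGTCA was in 0 of 16 and in 1.79% of all. The core TGACG is part of the full element TGACGTCA, so that the searches overlap. The 250 bases before the start are printed 5′ to 3′ on the plus strand, and capitals mark the core on either strand. They are chr9:21183851-21184100 for the second of 3 Pde4a starts, chr4:102421305-102421554 for the first of 4 Pde4b starts, chr13:108653927-108654176 for Pde4d and chr7:81213015-81213264 for Pde8a.
Pde4a: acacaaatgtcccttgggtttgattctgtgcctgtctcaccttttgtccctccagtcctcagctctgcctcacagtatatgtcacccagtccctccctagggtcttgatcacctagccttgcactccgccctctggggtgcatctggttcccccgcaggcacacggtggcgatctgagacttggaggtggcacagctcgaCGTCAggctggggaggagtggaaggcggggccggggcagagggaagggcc
Pde4b: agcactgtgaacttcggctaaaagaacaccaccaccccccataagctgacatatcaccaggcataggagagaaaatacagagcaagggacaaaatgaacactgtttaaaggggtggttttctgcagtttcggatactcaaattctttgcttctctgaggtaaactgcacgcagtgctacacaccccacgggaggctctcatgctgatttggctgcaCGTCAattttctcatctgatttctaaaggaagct
Pde4d: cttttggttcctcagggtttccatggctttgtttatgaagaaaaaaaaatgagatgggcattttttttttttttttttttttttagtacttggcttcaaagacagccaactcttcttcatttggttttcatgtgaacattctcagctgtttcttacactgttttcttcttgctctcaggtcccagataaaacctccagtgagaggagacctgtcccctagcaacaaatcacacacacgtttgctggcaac
Pde8a: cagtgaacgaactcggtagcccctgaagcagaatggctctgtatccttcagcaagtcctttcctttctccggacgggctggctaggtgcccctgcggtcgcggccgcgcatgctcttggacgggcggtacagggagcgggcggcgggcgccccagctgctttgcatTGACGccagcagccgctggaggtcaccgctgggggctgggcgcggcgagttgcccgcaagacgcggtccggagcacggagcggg
The core began 50 bases before the start in Pde4a, 34 bases before it in Pde4b and 84 bases before it in Pde8a, and Pde4d had none in this window. The fourth window that held it belonged to Pde8b. The starts printed for Pde4a and Pde4b are the ones whose windows held the core, and the other windows of both genes did not hold it. The core was thus found upstream of 1 of 3 starts of a gene higher in BAT and of 1 of 4 starts of a gene higher in white adipocytes. It was also found upstream of a gene whose tissues overlapped in RPKM. A match is a description of the letters and was not tested for binding. The deposited rows do not show which start was used. The windows are in the GRCm38.p6 build and the rows in mm9, and their positions were not matched. Pde4d has a second row (chr13:109240142-109651322), which held 0 to 6 reads per sample. Whether the printed Pde4d window belongs to that row or to the row behind the Pde4d values was not tested.

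PDE7 enzymes are cAMP-specific, and PDE7A is well known from lymphocytes. Pde7a (chr3:19123108-19211322) had 5.40 to 8.47 RPKM in iWAT adipocytes (median 6.06), 2.19 to 4.77 in eWAT (median 3.77) and 0.787 to 1.11 in BAT (median 1.06). The tissues did not overlap and stood in the order iWAT, eWAT, BAT. The log2 fold change was 0.83 for iWAT over eWAT (SE 0.19, adjusted p = 0.00182). Against BAT, Pde7a was 4.25-fold higher in iWAT (2.09, SE 0.13, adjusted p = 5.99e-10) and 2.43-fold higher in eWAT (1.28, SE 0.17, adjusted p = 4.89e-06). Pde7a and Pde4b were the genes of the family that were higher in both white depots than in BAT. The summed RPKM of the lymphocyte markers was 0.305 to 1.41 in iWAT, 0.126 to 0.340 in eWAT and 0.374 to 0.932 in BAT, and their part in the Pde7a values was not tested.

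Pde7b (chr10:20117810-20444884) was lower than Pde7a in both white depots. It had 1.26 to 1.63 RPKM in iWAT (median 1.46), 0.443 to 0.836 in eWAT (median 0.704) and 0.575 to 1.13 in BAT (median 0.867). The iWAT samples lay above all others on this scale. Pde7b was 2.19-fold higher in iWAT than in eWAT (log2 fold change 1.13, SE 0.14, adjusted p = 1.29e-05). For iWAT over BAT, the value was 0.16 after TMM scaling (95% interval -0.13 to 0.45, adjusted p = 0.303) and 1.01 without it (adjusted p = 1.55e-05). For eWAT over BAT, it was -0.95 (SE 0.17, adjusted p = 0.000122), and the call was lost without TMM (-0.04, adjusted p = 0.830).

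PDE8A is a high-affinity enzyme that sets basal cAMP in several tissues. Pde8a (chr7:88358482-88479419) had 5.31 to 6.91 RPKM in iWAT (median 6.04), 5.21 to 6.62 in eWAT (median 5.99) and 5.23 to 7.10 in BAT (median 6.94). The ranges of the 3 tissues overlapped in RPKM, although the median of BAT lay above the highest white sample. The log2 fold change of iWAT over eWAT was 0.02 (95% interval -0.13 to 0.16, adjusted p = 0.850). After TMM scaling, Pde8a was lower in iWAT (-0.73, SE 0.07, adjusted p = 9.43e-08) and in eWAT (-0.72, SE 0.08, adjusted p = 3.75e-07) than in BAT. Both turned without TMM, to 0.13 and 0.19, so that the direction for Pde8a against BAT rested on the scaling.

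PDE8B is the related enzyme known from thyroid and adrenal gland. Pde8b had 0.541 to 0.973 RPKM in iWAT (median 0.730), 1.302 to 2.78 in eWAT (median 1.88) and 0.588 to 0.688 in BAT (median 0.623). The eWAT samples were above all others. Pde8b was 2.60-fold higher in eWAT than in iWAT (log2 fold change of iWAT over eWAT -1.38, SE 0.19, adjusted p = 3.34e-05) and 2.05-fold higher in eWAT than in BAT (1.03, SE 0.17, adjusted p = 4.01e-05). It was the 1 gene of the family called higher in eWAT than in iWAT. For iWAT over BAT, the value was -0.38 (SE 0.16, adjusted p = 0.0383). This call was lost without any of iWAT numbers 2, 3 or 4 or BAT numbers 1, 5, 16 or 18, each of which gave an adjusted p of 0.0552 to 0.0747. The Pde8b row is a single-exon row on the plus strand (chr13:95793783-95796423) over the 3′ end of the minus-strand row of 26 exons (chr13:95794060-96020291). In GENCODE vM1, 1776 of its 2641 bases are exon of Pde8b. On the row of 26 exons, Pde8b had 0.414 ± 0.0866, 1.22 ± 0.386 and 0.306 ± 0.0347 RPKM in iWAT, eWAT and BAT, with differences of -1.55 (SE 0.20, adjusted p = 1.9e-05), -0.17 (SE 0.15, adjusted p = 0.288) and 1.41 (SE 0.20, adjusted p = 8.09e-06) for iWAT over eWAT, iWAT over BAT and eWAT over BAT.

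Within lanes, the 7 genes called between the white depots kept their direction in both lane 1 (2 iWAT and 4 eWAT samples) and lane 2 (4 and 2). For Pde3b, the log2 ratio of mean TMM-scaled RPKM of iWAT over eWAT was 0.97 in lane 1 and 1.43 in lane 2. For Pde8b, it was -1.10 and -1.58. For Pde4b, which was not called, it was -0.52 in lane 1 and 0.15 in lane 2, where iWAT number 5 was sequenced.

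Markers of cell types moved with several of these differences. The 8 adipocyte markers summed to 11564 to 16245 RPKM in iWAT (median 14429), 2580 to 7996 in eWAT (median 5703) and 5642 to 6910 in BAT (median 5878). All 8 were higher in iWAT than in eWAT, as Pde3b was. The 9 macrophage markers summed to 503 to 983 RPKM in iWAT (median 707), 2899 to 4556 in eWAT (median 3120) and 32.9 to 63.1 in BAT (median 52.6). All 9 were higher in eWAT than in iWAT and higher in both white depots than in BAT, the order that Pde4b showed without iWAT number 5. None of these 17 markers was at 0 throughout a tissue. In bulk RNA, fewer cells of a type and less RNA per cell cannot be told apart. The sums in iWAT, eWAT and BAT had medians of 287, 93.3 and 116 RPKM for 6 endothelial markers, 109, 41.5 and 129 for 6 of smooth muscle and pericytes, and 504, 122 and 33.7 for 6 of fibroblasts and progenitors. The fibroblast sum was mostly Dpt (means of 476, 85.9 and 16.3 RPKM). Col1a1 (31.7, 30.0 and 4.47 RPKM) and Dcn (12.5, 14.8 and 10.2) also had their lowest means in BAT. Pi16 (0.773, 0.421 and 1.93 RPKM) and Dpp4 (0.084, 0.099 and 0.124) had their highest means there, and Pdgfra had 0.771, 1.06 and 0.929 RPKM. The medians of the sums were 12.7, 3.14 and 73.4 for 7 of skeletal muscle, 2.31, 3.26 and 8.47 for 5 of mesothelium (Wt1 at 0 in BAT) and 9.34, 5.75 and 4.99 for 5 of Schwann cells and nerve (Th at 0 in both white depots). The skeletal muscle sum was very unequal within BAT, from 1.64 RPKM in number 2 to 116 in number 5. In BAT the mesothelial sum was almost wholly Lrrn4 (mean 8.30 RPKM), and Msln, Upk3b, Wt1 and Krt19 each had a higher mean in eWAT (0.201 to 0.637 RPKM) than in BAT (0.0171 RPKM at most). Their part in the values of the phosphodiesterase genes was not tested.

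Across the 6 eWAT samples, Pde3b rose with the adipocyte marker sum (log2 scale, Pearson's r = 0.994, two-sided exact permutation p = 0.00278, adjusted over 6 relations 0.0167). Spearman's rho was 0.943 (exact p = 0.0167, adjusted 0.1), and leaving out both samples farthest from the median marker sum gave r = 0.963. The eWAT samples lowest in Pde3b, numbers 1 and 3, had the lowest adipocyte sums (3525 and 2580 RPKM). They also had the highest macrophage sums (4490 and 4556 RPKM, against 2899 to 3184 in the other eWAT samples). The part of macrophage RNA in the relation was not tested. In iWAT, r was 0.831 (exact p = 0.0347, adjusted 0.104) with rho of 0.771 (exact p = 0.103, adjusted 0.308). The iWAT relation rested on its 2 outermost samples, since r fell to 0.121 when they were left out. In BAT, r was 0.583 (exact p = 0.199, adjusted 0.395) with rho of 0.6 (exact p = 0.242, adjusted 0.363), and leaving out its outermost 2 samples gave r = 0.374. Pde4b did not follow the macrophage sum in this way. Its r was 0.519 in iWAT (exact p = 0.312, adjusted 0.395), -0.478 in eWAT (exact p = 0.329, adjusted 0.395) and 0.399 in BAT (exact p = 0.440, adjusted 0.440). Its rho was 0.486, -0.657 and 0.257 (exact p = 0.356, 0.175 and 0.658, adjusted 0.427, 0.350 and 0.658). Without the outermost 2 samples of each tissue, its r was 0.791, -0.922 and -0.292.

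Per 1000 RPKM of the adipocyte markers, Pde3b had 2.03 to 2.58 RPKM in iWAT (median 2.29), 2.64 to 3.34 in eWAT (median 3.04) and 4.06 to 5.18 in BAT (median 4.39). The tissues did not overlap on this scale, and eWAT was above iWAT, the reverse of the order by RPKM. The log2 difference was -0.39 for iWAT over eWAT, -0.97 for iWAT over BAT and -0.58 for eWAT over BAT, each with an exact permutation p of 0.00216 (two-sided, adjusted 0.00216), the smallest that 6 against 6 samples can give. The ratio depends on the marker chosen, and Fabp4 alone made up 73.6 ± 1.06%, 74.4 ± 2.79% and 83.7 ± 1.18% of the sum in iWAT, eWAT and BAT. Against each of the 8 markers alone, the mean log2 ratio of iWAT over eWAT was below 0 for all 8, from -0.049 (Pparg) to -1.35 (Retn), although the samples overlapped for Lep, Fabp4, Pparg and Cidec. For iWAT over BAT, it was below 0 for 6 and above 0 for Lipe (0.085) and Pparg (0.20), with overlapping samples for both. For eWAT over BAT, it was below 0 for 5 and above 0 for Plin1 (0.068), Pparg (0.24) and Lipe (0.58). With the Pde3b row of 15 exons, the difference against the sum was -0.36, -0.62 and -0.26, and the samples of eWAT and BAT then overlapped. These ratios to single markers are values with no test. The order of BAT against the white depots therefore rested on the marker, and that of iWAT and eWAT had 1 direction over these 8.

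**Figure D5:**
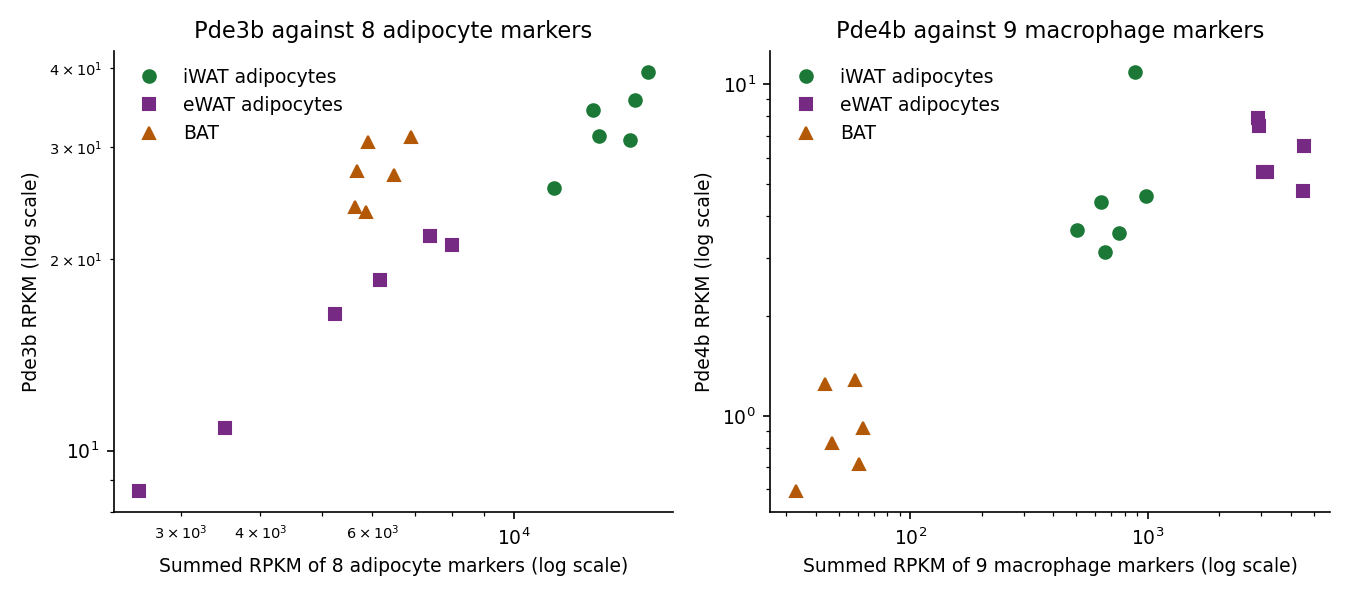
Pde3b RPKM against the summed RPKM of 8 adipocyte markers (left) and Pde4b RPKM against that of 9 macrophage markers (right), both on log scales, in the 18 samples. The 6 eWAT samples of the left panel rise along a line (r = 0.994), while in the right panel iWAT number 5 (10.9 RPKM of Pde4b) lies above samples with more macrophage RNA.

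Other genes of the pathway were read from the same tests, in which 68.6%, 75.3% and 82.5% of all genes differed for iWAT over eWAT, iWAT over BAT and eWAT over BAT. Of 9 genes tested from the other phosphodiesterase families, 8 differed between iWAT and eWAT (5 higher in iWAT), 6 between iWAT and BAT (4 higher in iWAT) and, of 8 tested, 6 between eWAT and BAT (2 higher in eWAT). Pde2a, which codes for an enzyme of cAMP and cGMP, had mean levels of 24.7, 11.2 and 8.04 RPKM in iWAT, eWAT and BAT, next to Pde3b among the catalytic genes. Pde1b, which codes for a calmodulin-regulated enzyme, had 2.76, 4.67 and 0.739 RPKM, and was higher in both white depots than in BAT (log2 fold change 1.29, SE 0.14, and 2.07, SE 0.12). Pde10a was higher in BAT, with log2 fold changes of -1.10 (SE 0.26) for iWAT and -2.42 (SE 0.10) for eWAT over BAT, at 0.258, 0.1003 and 0.360 RPKM.

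Of 10 genes for partners of these enzymes, 8, 6 and 9 differed in the 3 comparisons, with 2, 5 and 7 higher in the first tissue (median log2 fold change -0.44, 0.52 and 1.04), against 68.6%, 75.3% and 82.5% of all genes. Pik3r5, which codes for a regulatory subunit of phosphoinositide 3-kinase γ, had the largest differences, with 6.31, 26.8 and 0.280 RPKM and log2 fold changes of -2.09 (SE 0.17), 3.87 (SE 0.18) and 5.99 (SE 0.14). Its directions were opposite to those of Pde3b throughout, although for iWAT over BAT the direction of Pde3b rested on its 3′ row and on TMM. The 9 macrophage markers had median log2 fold changes of -2.29, 3.95 and 6.36 in these comparisons, and the part of macrophage RNA in the Pik3r5 values was not tested. Abhd15, which codes for a protein bound to PDE3B in fat cells, had 13.2, 6.24 and 7.79 RPKM in iWAT, eWAT and BAT. Its log2 fold change of 1.09 for iWAT over eWAT (SE 0.23, adjusted p = 0.000943) was close to that of Pde3b. The β-arrestin genes Arrb1 (8.39, 9.58 and 2.51 RPKM) and Arrb2 (4.27, 13.8 and 1.26 RPKM) were both higher in eWAT than in BAT, by 1.34 (SE 0.07) and 2.86 (SE 0.11), opposite to Pde4d. Of 11 A-kinase anchoring proteins tested, 5, 9 and 10 differed, with 3, 4 and 5 higher in the first tissue (median 0.13, -0.15 and -0.09). Akap5 was lower in iWAT (-3.15, SE 0.28) and in eWAT (-3.61, SE 0.19) than in BAT, at low levels. Akap12, which codes for gravin, was higher in iWAT (2.05, SE 0.24) and in eWAT (1.18, SE 0.21) than in BAT, with 45.0, 24.0 and 7.05 RPKM.

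Of 9 cAMP effectors tested, 9, 4 and 8 differed, with 6, 1 and 3 higher in the first tissue (median 0.88, -0.24 and -1.49), where 68.6%, 75.3% and 82.5% of all genes differed. Popdc2, which codes for a membrane protein that binds cAMP, had 1.23, 0.266 and 4.06 RPKM and log2 fold changes of 2.22 (SE 0.29), -2.33 (SE 0.15) and -4.53 (SE 0.23). Prkar2a, a regulatory subunit of protein kinase A, was higher in both white depots than in BAT (0.80 and 1.11, SE 0.09 each). The subunit genes Prkar2b (216, 79.9 and 250 RPKM) and Prkaca (55.7, 30.6 and 60.3) were instead lower in both white depots. Their values were -0.81 and -2.23 for Prkar2b and -0.72 and -1.57 for Prkaca. Prkar1a (0.48) and Prkacb (0.66) were higher in eWAT than in BAT but did not pass for iWAT over BAT, and Prkar1b passed in neither comparison. Of 9 genes on the route from the insulin receptor to PDE3B, 7, 4 and 7 differed, with 6, 3 and 4 higher in the first tissue (median 0.35, 0.10 and 0.22). Akt2 showed log2 fold changes of 1.02 (SE 0.15), -0.72 (SE 0.10) and -1.73 (SE 0.13). These were the directions of Pde3b, although for iWAT over BAT the direction of Pde3b rested on its 3′ row and on TMM. Irs2, which codes for an insulin receptor substrate, was instead higher in both white depots than in BAT, by 3.22 (SE 0.26) and 2.90 (SE 0.27), and Pik3cb was so by 1.74 (SE 0.09) and 1.61 (SE 0.07). Akt1 was lower in iWAT than in eWAT (-0.75, SE 0.12) and higher in eWAT than in BAT (0.85, SE 0.10), opposite to Pde3b. Of 10 genes induced by cAMP, 6, 9 and 10 differed, with 3, 6 and 7 higher in the first tissue (median 0.02, 0.65 and 0.96). Fos had 458, 327 and 1.51 RPKM in iWAT, eWAT and BAT, and Nr4a3 had 3.50, 8.14 and 0.555. The genes of the brown programme in that list went the other way. Ucp1, the uncoupling protein of brown fat, had 2.26, 0.261 and 1858 RPKM and was lower in iWAT (-10.29, SE 0.22) and in eWAT (-13.35, SE 0.25) than in BAT. Ppargc1a (-3.62 and -5.30) and Dio2 (-4.26 in both) were also lower in the white depots than in BAT. The part of cell isolation in these levels, and in the level of Pde4b, was not tested.

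Over the 18 samples and 14156 genes with a mean of at least 1 RPKM, the genes most like Pde3b in log2(RPKM + 0.1) were Adhfe1 (r = 0.986), Vldlr (0.985), Acsl1 (0.983), Gas2/Svip (0.983) and Svip (0.983), the last pair being rows of overlapping symbols. For the Pde3b row of 15 exons, they were 1600014C10Rik (r = 0.992), Pex19 (0.981), Acvr1c (0.981), BC034902/Ankrd5 (0.981) and BC034902 (0.980). The points of these correlations share their libraries and their tissue, and the lists of both rows had no gene in common.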

How the data were processed

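RNA of 18 samples was analysed, 6 each of iWAT adipocytes, eWAT adipocytes and whole BAT of HFD mice, grouped by their labels. The authors prepared libraries with the NEBNext Ultra kit, sequenced them on a HiSeq instrument and mapped reads to mm9. The submitters' processing notes name cutadapt 1.16 and HISAT2 2.1.0. The counting program, annotation, strand setting and treatment of multimapped reads are not given in the sources used here. The deposited files hold a read count for each of 53445 rows, and the RPKM computed by the authors from it, with 1 total per sample. The total reads on rows were 24655056 to 42518483 per sample. The low reads of Pde4c (15 to 172) limit its precision, and its SE was the largest of the family for eWAT over BAT (0.216). Pde3a had a larger SE than Pde4c for iWAT over eWAT (0.321 against 0.319) and for iWAT over BAT (0.301 against 0.238). The reads are not counted by molecule.

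Of the symbols, 1220 had several rows, and the row with the highest mean RPKM was taken. Tissues were compared with edgeR 4.0.16 (glmQLFit and glmQLFTest, TMM, two-sided) in R 4.3.3 on the 12 samples of each pair. The filter was a mean count of 10, and Benjamini-Hochberg adjustment ran over all genes that passed it, with a threshold of 0.05. The test was checked on simulated data. The members, gene lists and marker lists were chosen with earlier results of these data known, as was the rule that names all members, that lets the called gene of largest change in each direction be named from each pathway list and comparison, and that takes the 5 genes most like Pde3b. Pde2a, Arrb1, Arrb2, Pik3cb, Prkaca, Prkar1a, Prkar1b, Prkar2b, Ppargc1a and Dio2 were named outside that rule after their values were seen. The row of most exons, the marker correlations, the ratios to adipocyte markers and the values within lanes were also added after the data were seen. The alternatives were a replicate block for sample number, DESeq2 1.42.0, limma 3.58.1 on log2(RPKM + 0.1) and log2(RPKM + 1), no TMM, no filter, summed rows, all 18 samples in 1 fit, lane, a 2-fold threshold and each sample left out. Samples of a tissue were separate libraries (the lowest chi-square per degree of freedom was 15.7). Whether the numbers stand for separate mice is not stated in the labels; the p-values measure the spread between these samples.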

Additional observations from a re-analysis of the deposited data

Results flagged for a closer look

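Of the 30 groups of 6 samples (10 genes in 3 tissues), 1 held a value far from the other 5, where chance gives about 1.5. Pde4b had 10.9 RPKM (4995 reads) in iWAT number 5, against 3.12 to 4.605 RPKM in the other iWAT samples. In the same sample, Pde3a (1.60 against 0.398 to 1.002 RPKM), Pde4c (0.615 against 0.179 to 0.591) and Pde8a (6.91 against 5.31 to 6.39) were also above the other 5, and Pde3b (25.9 against 30.8 to 39.5) and Pde7a (5.40 against 5.74 to 8.47) were below them. Summed markers of endothelial cells (529 against 187 to 417 RPKM), smooth muscle and pericytes (245 against 73.2 to 189) and lymphocytes (1.41 against 0.305 to 1.02) were above the other 5 as well, and those of adipocytes (11564 against 13327 to 16245) were below. Macrophage markers (878 RPKM) were within the range of the others, 503 to 983. The part of these cells in the Pde4b value was not tested.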

How the results depend on the processing

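Of the log2 fold changes of the 10 genes under settings other than left-out samples, 245 kept direction and call, 16 lost the call, 7 gained it and 12 reversed. With 1 sample left out, 344 kept both, 7 lost the call, 6 gained it and 3 reversed. The number of genes called was 7 to 8 for iWAT over eWAT, 7 to 9 for iWAT over BAT and 10 for eWAT over BAT when samples were left out. Over all genes, the calls then numbered 12667 to 13562, 14434 to 14833 and 16270 to 16552. The labels do not say that samples of 1 number share a mouse. Across 19941 genes, deviations of same-numbered samples from their tissue mean had mean correlations of -0.005 between the white depots (6 pairs, -0.241 to 0.420), -0.0137 between iWAT and BAT and 0.0135 between eWAT and BAT (4 pairs each), and only 2 of 12, 1 of 8 and 3 of 8 samples correlated best with their own number. With a replicate block for sample number, 7, 6 and 10 genes were called, against 12836 of 19623, 12555 of 19745 and 15149 of 20076 genes tested. The calls of Pde3b (adjusted p = 0.104) and Pde8b (adjusted p = 0.207) for iWAT over BAT were the ones of the family that changed with the block. A threshold of 2-fold gave 5 genes for iWAT over BAT; over all genes it gave 4892, 7363 and 9830 calls in place of 13454, 14864 and 16561. For iWAT over BAT, no TMM reversed Pde3a (0.25), Pde3b (0.51), Pde8a (0.13) and Pde8b (0.48). For eWAT over BAT, it reversed Pde8a (0.19). Limma on log2(RPKM + 0.1) and on log2(RPKM + 1) reversed iWAT over BAT for Pde3b (0.26 and 0.25) and Pde8b (0.17 and 0.088), and the row of most exons did so for Pde3b (0.0027). Limma split the calls over all genes into 12752 and 4402 or 12743 and 4419 for iWAT over BAT, and 11972 and 5740 or 11946 and 5739 for eWAT over BAT. The value near 0 of Pde8a for iWAT over eWAT, which was not called, reversed without TMM (-0.063), with lane as a covariate (-0.026), and without iWAT number 4 (-0.0011), iWAT number 5 (-0.009) or eWAT number 2 (-0.024), in a range of -0.024 to 0.042 over the left-out samples. The share of Pde3b in the family was 72.4, 56.6 and 69.4% in iWAT, eWAT and BAT with rows summed, and 51.0% in BAT with the row of most exons. The single-exon row of Pde3b lies within its longer row, so that the summed share can hold the same stretch of RNA in both rows. The number of genes with a mean of at least 1 RPKM in BAT, 5, became 10 at a cutoff of 0.5 RPKM and 9 on TMM-scaled RPKM. The cause of these changes was not tested beyond the shift of all genes that TMM makes.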

Other observations

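Among 151 symbols with a row of at least 5 exons and a single-exon row of at least 1000 bases within 5000 bases of its 3′ end, the log2 ratio of the single-exon row to the longer row was higher in BAT than in iWAT for 124 symbols (median difference 0.32) and higher in BAT than in eWAT for 125 (median 0.31). Between iWAT and eWAT the median difference was 0.01. Pde3a, whose single-exon row lies just downstream of the gene, had differences of 1.02 and 1.06 for BAT over iWAT and over eWAT. Pde3b had 0.35 and 0.32, and Pde8b 0.22 and 0.36. The comparison was chosen after the Pde3b rows were seen.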
